A study of Mus musculus with 44 samples.

Results

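In granulosa cells of Smad3PA/PA mice, the PA antibody marked 4319 regions in both vehicle replicates, and 2244 of them (52.0%) met no PA peak in either GDF9 replicate. Over all PA peaks of vehicle replicates 1 and 2, shared or not, 19.6% and 11.5% met a GDF9 PA peak, so most met none. These 2244 vehicle-only regions are the subject here. They were chosen from the peak lists of PA, a short peptide tag joined to SMAD3, by 2 conditions. A region had to hold overlapping peaks of vehicle replicates 1 and 2, with at least 1 shared base, and no base of a peak of GDF9 replicate 1 or 2. The remaining 2075 vehicle regions, called retained below, met a GDF9 peak, and 6243 of the 9672 GDF9 regions met no vehicle peak and are called GDF9-only. Because the PA lists made these sets, the presence, height and position of PA peaks in them are given as a description and were not tested.

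SMAD3 and its close relative SMAD2 carry signals of the TGF-beta family. A ligand such as GDF9, which the oocyte secretes, binds receptor kinases on the surrounding granulosa cells, and these phosphorylate SMAD2 and SMAD3. The phosphorylated proteins join SMAD4, gather in the nucleus and bind DNA at short elements, often beside other transcription factors. In unstimulated cells SMAD proteins also move between cytoplasm and nucleus, and cultured granulosa cells make TGF-beta family ligands of their own.

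The study profiled granulosa cells of 2 knock-in lines by CUT&RUN, in which an antibody directs a nuclease to cut and release the DNA it is bound to. Smad3PA/PA mice carry the PA tag at the N terminus of both SMAD3 copies, and Smad2HA/+ mice carry an HA tag at the C terminus of 1 SMAD2 copy. Both lines had a mixed C57BL/6J and 129S5/SvEvBrd background, and cells came from females of 3 to 4 weeks given 5 IU of PMSG, a gonadotropin that makes follicles grow, 46 h before collection. Cells pooled from 8 mice were cultured for 4 d and then treated for 4 h with GDF9 at 100 ng/mL or with vehicle. Every group used here, vehicle included, carried the tagged allele, and no untagged cells are among the groups compared. Smad3PA/PA cells have lists for PA, SMAD2, SMAD4 and H3K27ac (acetylated histone H3, found at active regulatory DNA), and Smad2HA/+ cells have lists for HA, SMAD2, SMAD3 and H3K27ac, each with 2 vehicle and 2 GDF9 replicates. RNA-seq of 2 GDF9 and 2 vehicle cultures is assigned to Smad3PA/PA cells by the study's methods, while the sample labels give no genotype. The sources do not say whether replicates came from separate pools of mice, so the p-values below measure only the spread between these samples.

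Before the results, 1 library has to be named. The 4 PA lists held 82459 and 60165 peaks with vehicle and 80172 and 83620 with GDF9, and the peaks of vehicle replicate 2 stood apart in base composition. Their median G+C content was 46.9%, against 38.0% in vehicle replicate 1 and 36.6% and 37.2% in the GDF9 replicates. Chromosome X held 7.71% of the peaks of vehicle replicate 2 and 14.4% to 15.6% of those of the other 3 lists. The 4 SMAD2 lists of the same cells had medians of 37.4% to 39.2% G+C. Every vehicle-only region needs a peak of vehicle replicate 2. In the RNA-seq, the granulosa markers Inha and Inhba, which encode inhibin and activin subunits, had 10768 to 14887 normalized counts per library, and Foxl2 had 745 to 834. Amh, made by growing follicles, and Cyp19a1, the aromatase, had at most 2.90 and 2.30. Summed markers of theca and stroma lay at 10759 to 11428 per library, those of surface epithelium at 5312 to 5651, and those of endothelium, immune cells and oocytes at 23.2 to 132, with Insl3 (theca) and Figla (oocyte) listed at 0. The 6 immune markers summed to 102 and 105 with vehicle and 131 and 132 with GDF9, and the part of other cell types in the results was not tested.

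Sequences of 5 vehicle-only regions are given as examples, which were picked as extremes and do not stand for the set. The first 4 are among the regions with the highest PA signal in both vehicle lists that lie outside annotated exons, each named after a nearby or overlapping gene. The region near Kcne2 was picked as the only region that was also vehicle-only in 2 other combinations of line and antibody. Each is given as the plus strand of GRCm38 (mm10), whole or as 300 bases at the part shared by both vehicle peaks, with capitals for the SMAD box CAGAC or its complement GTCTG.
Wasf3 (chr5:146379441-146379707): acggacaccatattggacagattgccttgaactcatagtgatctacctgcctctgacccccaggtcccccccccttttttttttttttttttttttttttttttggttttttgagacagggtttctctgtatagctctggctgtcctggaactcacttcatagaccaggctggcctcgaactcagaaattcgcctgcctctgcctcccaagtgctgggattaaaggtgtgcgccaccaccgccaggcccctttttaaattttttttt
Naa25 (chr5:121436857-121437156): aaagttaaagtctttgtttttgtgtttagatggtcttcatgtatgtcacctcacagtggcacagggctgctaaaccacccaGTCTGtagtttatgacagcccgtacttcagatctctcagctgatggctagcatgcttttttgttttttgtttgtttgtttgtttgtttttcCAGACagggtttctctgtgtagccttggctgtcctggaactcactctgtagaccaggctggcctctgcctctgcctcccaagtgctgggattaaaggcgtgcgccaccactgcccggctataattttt
AW822073 (chr10:58220843-58221104): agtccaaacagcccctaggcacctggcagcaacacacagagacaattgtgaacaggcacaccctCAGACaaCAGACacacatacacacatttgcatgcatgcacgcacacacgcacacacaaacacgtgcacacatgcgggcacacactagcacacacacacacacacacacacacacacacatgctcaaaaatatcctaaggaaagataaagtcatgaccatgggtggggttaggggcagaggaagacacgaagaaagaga
Zfp933 (chr4:147855623-147855922): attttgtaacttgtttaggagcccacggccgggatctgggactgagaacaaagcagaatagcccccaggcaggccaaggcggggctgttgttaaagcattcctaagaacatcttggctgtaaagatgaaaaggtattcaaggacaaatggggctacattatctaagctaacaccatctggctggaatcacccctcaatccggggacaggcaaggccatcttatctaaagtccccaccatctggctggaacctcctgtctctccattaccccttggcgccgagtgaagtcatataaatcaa
Kcne2 (chr16:92287234-92287533): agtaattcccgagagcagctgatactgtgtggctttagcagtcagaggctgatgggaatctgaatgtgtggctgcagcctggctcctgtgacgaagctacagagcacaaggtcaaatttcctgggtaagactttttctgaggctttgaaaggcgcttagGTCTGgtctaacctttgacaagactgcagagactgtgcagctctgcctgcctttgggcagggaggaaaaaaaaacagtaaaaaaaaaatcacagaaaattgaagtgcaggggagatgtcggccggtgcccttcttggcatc

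The Wasf3 stretch held no SMAD box, 86.5% of its bases were soft-masked as repeats in the reference, and it included a long run of T. The Naa25 stretch, in an intron of Naa25 (a subunit of an N-terminal acetyltransferase) where the Erp29 model overlaps, held 2 boxes and was 65.3% repeat. The AW822073 stretch held 2 boxes close together beside a run of CA repeats, and the Zfp933 stretch held none. The Kcne2 stretch held 1 box and was 22.0% repeat. Across the 5 stretches, 2 held no SMAD box.

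Most vehicle-only regions were shallow. In every list the maximum signal of a peak was a whole multiple of 1 value, within 0.05 of a whole number, which is taken here as the signal of 1 DNA fragment, so heights can be given as the number of stacked fragments. The median vehicle-only region reached 5 fragments in vehicle replicate 1 and 5 in replicate 2, the same as the median over all PA peaks of either list. Retained regions reached a median of 8 fragments in each replicate. By the lower of its 2 heights, a vehicle-only region had a median of 4 fragments and an upper quartile of 5, and 1963 of 2244 had at most 5. Only 21 reached 10 fragments or more in both replicates, whereas 676 retained regions did. The highest vehicle-only region was the Wasf3 region with 18 and 25 fragments. Retained heights ran up to 1373644 fragments in replicate 1 and 1231891 in replicate 2, and retained lengths up to 38465 bp. No IgG list was used to take out background, and the part of such pileups in the retained set was not tested.

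**Figure D1:**
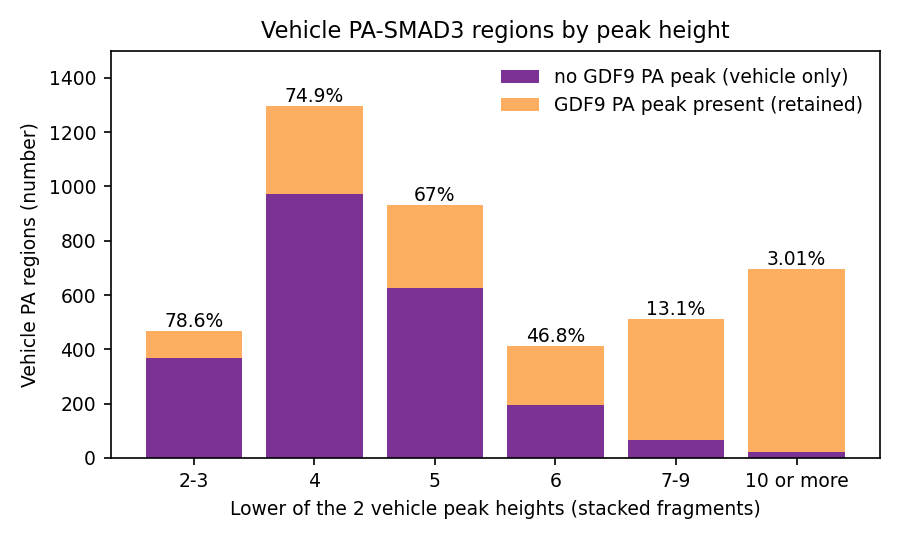
Number of vehicle PA regions by the lower of their 2 peak heights in stacked fragments, split into regions with no GDF9 PA peak (purple) and regions with one (orange), with the percent that were vehicle-only above each bar. Vehicle-only regions made up 78.6% of the regions of up to 3 fragments and 3.01% of those of 10 or more.

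The share of vehicle regions without a GDF9 peak fell with height. It was 78.6% of 468 regions whose lower height was up to 3 fragments, 74.9% at 4 fragments and 67.0% at 5. It was 46.8% at 6, 13.1% at 7 to 9 and 3.01% of 697 regions at 10 or more. The PA lists made both axes of this description, so it has no test.

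The regions were 179 to 2383 bp long with a median of 915 bp, and the points of maximum signal of replicates 1 and 2 lay a median of 284 bp apart. Both peaks shared a median of 36.6% of the merged region, against 44.1% in retained regions. In retained regions the maxima lay 211 bp apart, with a first quartile of 31 bp against 136 bp in vehicle-only regions. Vehicle-only regions took up 2.74% of the peaks of vehicle replicate 1 and 3.77% of those of replicate 2. Between the replicates as a whole, 5.52% of the peaks of replicate 1 met a peak of replicate 2, and 8.01% of those of replicate 2 met one of replicate 1. The 2 lists covered 2.01% and 1.30% of the genome. How many peaks of such lists would overlap if placed at random was not tested, so a shared base does not by itself show reproduced binding.

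The border of the set can be read from the distance to the nearest GDF9 peak. The median vehicle-only region lay 3721 bp from one, and 474 (21.1%) lay within 1000 bp. At the border, 3 vehicle-only regions directly adjoined a GDF9 peak with no shared base, and the next ones lay 1 and 4 bp away, with vehicle heights of 9 and 7 and of 5 and 4 fragments. Just outside, the retained regions with the smallest overlaps shared 4, 9, 9, 11 and 12 bp with a GDF9 peak. In 56 retained regions the largest shared stretch was under 100 bp, and 76 vehicle-only regions lay under 100 bp from a GDF9 peak. Requiring a distance of 1 kb left 1770 regions.

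**Figure D2:**
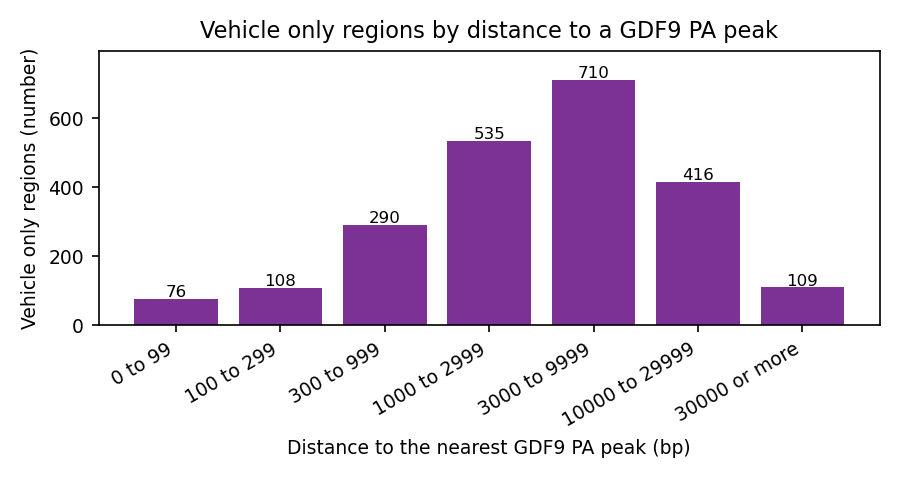
Number of vehicle-only regions by distance in bp to the nearest PA peak of GDF9-treated cells. The largest class, 710 regions, fell in the class that starts at 3000 bp, and 76 lay under 100 bp away.

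Vehicle-only regions lay mostly between genes. Of the 2244, 1265 (56.4%) were intergenic, 333 (14.8%) lay in introns other than the first, 155 (6.91%) in first introns and 94 (4.19%) in exons. A start site of an annotated gene lay within 3 kb of 397 (17.7%, 95% Wilson interval 16.2 to 19.3), but a start of a coding gene within 3 kb of only 151 (6.73%). Retained regions were nearer to starts, with 25.2% (23.4 to 27.1) within 3 kb, and GDF9-only regions farther, with 11.3% (10.5 to 12.1). The intervals cover counting error only. With vehicle replicate 1 as the only vehicle list the share was 10.8%, and with the G+C-rich replicate 2 alone it was 16.0%. The nearest start belonged to a coding gene for 33.8% of the regions, to a processed pseudogene for 23.4% and to a lincRNA for 16.0%.

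Chromosome X held the most vehicle-only regions, 278 or 1.63 per Mb, followed by chromosome 7 with 193 or 1.33 per Mb. The other autosomes held 0.428 to 1.15 per Mb and chromosome Y a single region. GDF9-only regions were far denser on X, at 8.14 per Mb, and retained regions were densest on chromosomes 4 and 14, at 1.99 and 1.95 per Mb. Of the vehicle-only regions, 145 (6.46%) lay within 10 kb of another and 698 (31.1%) within 100 kb. Whether they cluster more than regions placed at random was not tested.

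The base composition of vehicle-only regions lay between those of the 2 lists that made them. Their median G+C content was 44.2%, with quartiles of 41.5% and 47.3%. Retained regions had 42.7% and GDF9-only regions 35.5%. Among vehicle regions with 35% to 40% G+C, 37.9% of 799 were vehicle-only, against 61.0% of 1247 regions with 45% to 50%. The G+C content of the lists thus moved with the PA contrast itself, in the same direction as vehicle replicate 2, and its part in the choice of regions was not tested. Soft-masked repeats covered a median of 27.6% of a vehicle-only region, 39.0% of a retained region and 28.0% of a GDF9-only region.

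**Figure D3:**
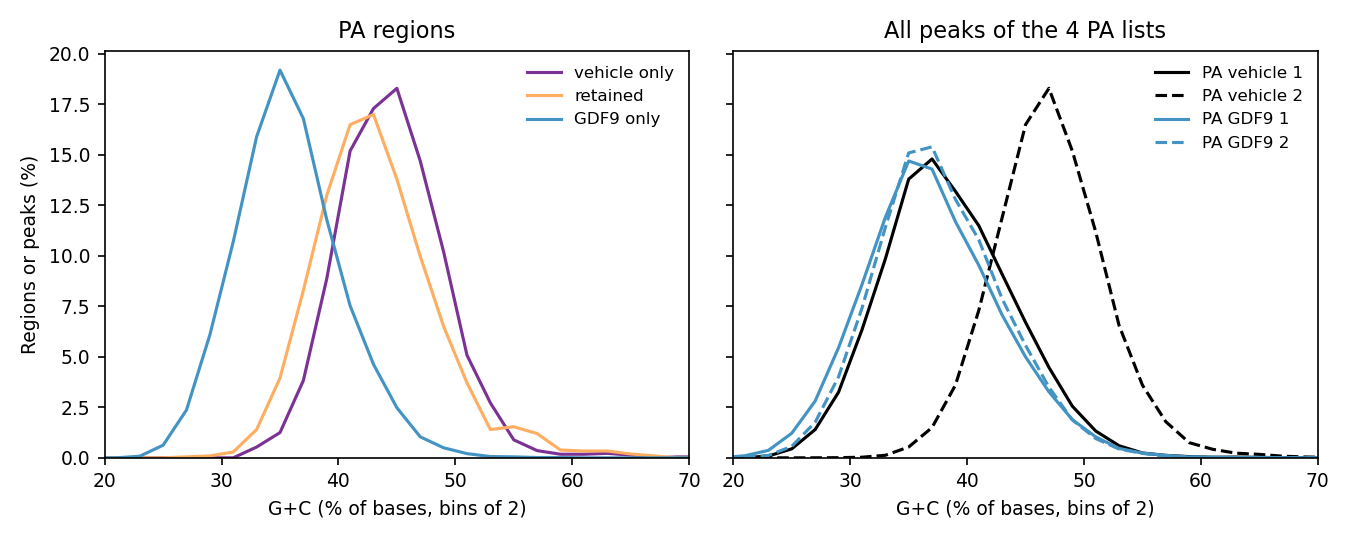
Distribution of G+C content, in percent of bases and in bins of 2, for the 3 sets of PA regions (left) and for all peaks of the 4 PA lists (right). The vehicle-only regions, with a median of 44.2%, lie between the peaks of vehicle replicate 1 (38.0%) and vehicle replicate 2 (46.9%), whereas the GDF9-only regions center on 35.5%.

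Short binding elements were counted on both strands in the 200 bp to either side of the center of each region and in windows of the same size 2 kb to either side. The SMAD box CAGAC, the core that SMAD3 and SMAD4 contact, occurred in 61.2% of vehicle-only regions (95% Wilson interval 59.2 to 63.2). It occurred in 56.1% and 58.4% of the windows beside them, in 56.4% of retained regions and in 44.8% of GDF9-only regions. Over all peaks of the vehicle lists it occurred in 50.7% for replicate 1 and 64.8% for replicate 2. The GC-rich SMAD element GGCGC was in 10.7% of vehicle-only regions, in 7.71% and 6.73% of the windows beside them and in 2.19% of GDF9-only regions, and over all peaks of vehicle replicates 1 and 2 in 3.74% and 11.8%. Both shares of the vehicle-only regions thus lay between those of the 2 lists. The inverted pair GTCTAGAC was in 0.223% of vehicle-only regions and in 0.490% and 0.312% of the windows beside them.

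Elements of other factors differed from the neighboring windows by at most 5 percentage points. The core CAAGGTCA of NR5A1 and NR5A2, nuclear receptors of steroid-producing cells, was in 3.52% of vehicle-only regions and 2.54% and 2.58% of the windows beside them. Shares of AT-rich cores were below those of the windows beside them. The GATA core AGATAA was in 20.7% against 24.5% and 25.1%, and the posterior HOX core TTTATG in 23.6% against 27.2% and 28.3%. In GDF9-only regions these cores were in 33.4% and 40.3%. The AP-1 element TGANTCA was in 11.5% against 11.1% and 11.6%, and the TGIF core TGTCA in 63.5% against 62.1% and 59.8%. The median G+C content of the same windows was 44.6% in vehicle-only regions, 42.6% on either side and 34.9% in GDF9-only regions. No element listed here contains another, and a match marks letters only, not a bound site.

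Lists of the other SMAD antibodies were not used to choose the regions. They met 2.05% to 10.7% of the vehicle-only regions, and the mean difference between treatments did not pass the test. A region was met when a peak of a list shared at least 1 bp with it. The SMAD4 lists of Smad3PA/PA cells met 4.10% and 4.19% of the 2244 regions with vehicle and 5.53% and 3.70% with GDF9. The SMAD2 lists met 10.74% and 2.05% with vehicle and 9.63% and 9.54% with GDF9. The low value belongs to the list of SMAD2 vehicle replicate 2, which holds 23082 peaks where the other 7 SMAD2 and SMAD4 lists hold 58442 to 81283. Values with vehicle and GDF9 overlapped for SMAD4, and the remaining SMAD2 vehicle list lay above both GDF9 lists.

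The SMAD lists of the Smad2HA/+ line had deeper peaks, of 10 to 17 fragments in the median. HA-tagged SMAD2 lists met 7.09% and 6.68% of the regions with vehicle and 7.09% and 6.37% with GDF9. SMAD3 lists, made with an antibody to the native protein, met 6.42% and 6.60% against 7.53% and 6.55%. Native SMAD2 lists met 7.22% and 6.24% against 7.89% and 7.93%, so both GDF9 lists lay above both vehicle lists there. The mean difference over the 5 combinations of line and antibody, vehicle minus GDF9, was −1.04 percentage points, with single combinations from −3.19 to 0.16. It was not larger than the spread between replicates (exact two-sided permutation test within combinations, p = 0.199, 7776 arrangements, smallest possible p = 0.000257). Without the 4 SMAD2 lists of Smad3PA/PA cells, 1 of which is short, it was −0.51 (exact permutation p = 0.134). The test does not show that the values were equal. It treats the combinations of a line as independent, although their lists may come from the same cultures. Its smallest possible p may therefore be too low.

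**Figure D4:**
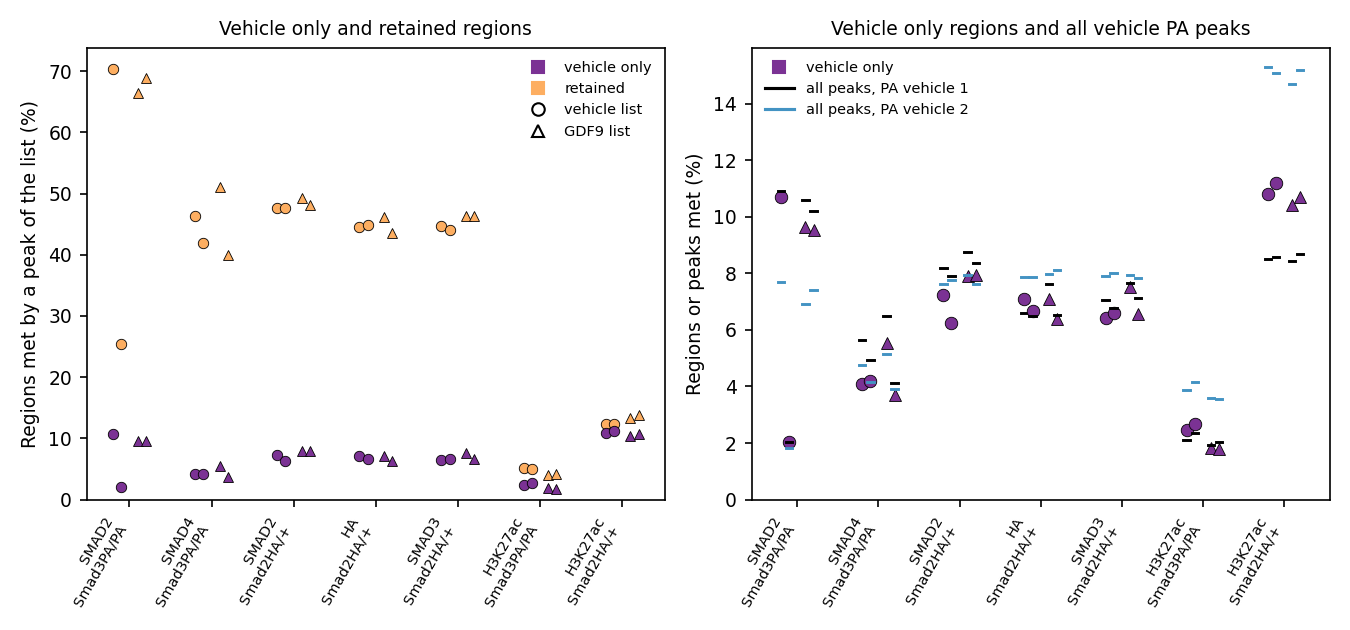
Percent of regions met by a peak of each list, for vehicle lists (circles) and GDF9 lists (triangles) of 7 combinations of antibody and line. Left, vehicle-only regions (purple, 1.78% to 11.2%) lie below retained regions (orange, 4.05% to 70.4%); right, the same purple values beside the percent of all PA peaks of vehicle replicate 1 (black) and replicate 2 (blue) that each list met.

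Retained regions, which were chosen for a peak in at least 1 further PA library, were met far more often by the same 20 lists, at 25.5% to 70.4%. To allow for differences between lists, the percent of vehicle-only regions met was divided by the percent of retained regions met. On the log2 scale this ratio ran from −3.64 to −2.60, and its mean difference between vehicle and GDF9 lists was −0.13 (exact two-sided permutation test, p = 0.165, same arrangements). The values for vehicle-only regions were nearer to those for PA peaks in general. Over all PA peaks of vehicle replicates 1 and 2, whether or not the other replicate had them, the HA lists met 6.48% to 8.12% and the SMAD4 lists 3.91% to 6.49%. Against each list's 2 values for PA peaks, the value for vehicle-only regions was below both for 11 of the 20 lists, between them for 9 and above both for 0, although merged regions are longer than single peaks. No test was made of this.

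At equal height vehicle-only regions were met less often than retained ones, which is given without a test. The split itself sorts regions by whether a further PA library had a peak there. A contrast in the same direction can thus follow from the choice of the sets. Vehicle-only regions with a lower height of 5 fragments were met by 7.64% of the 12 SMAD lists of Smad2HA/+ cells on average, and retained regions of that height by 31.5%. At 4 fragments the averages were 6.36% and 18.2%, and at 7 to 9 fragments 13.6% and 53.0%. Between 4 and 9 fragments the averages of retained regions rose with height, from 18.2% to 53.0%. Those of vehicle-only regions lay between 5.61% and 13.6%. At up to 3 fragments the averages were 20.8% for retained and 6.75% for vehicle-only regions. In the SMAD2 and SMAD4 lists of Smad3PA/PA cells, the averages of both sets rose between 4 and 9 fragments. Vehicle-only regions went from 5.19% to 17.5% there, and retained regions from 16.3% to 58.2%.

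Few single regions repeated across lists. Of the 2244 regions, 907 (40.4%) were met by none of the 20 lists and 694 (30.9%) by 1, while 37 (1.65%) were met by 10 or more. Among retained regions 7.81% were met by none and 47.1% by 10 or more, and among GDF9-only regions 27.8% and 2.90%. Both vehicle lists and no GDF9 list of SMAD4 met 5 vehicle-only regions, and both GDF9 lists and no vehicle list met 1. For native SMAD2 in Smad3PA/PA cells these counts were 4 and 28, where 1 vehicle list is short. In Smad2HA/+ cells the SMAD2 lists gave 8 and 11, the HA lists 9 and 6 and the SMAD3 lists 11 and 9. In Smad3PA/PA cells, retained regions gave 37 and 48 for SMAD4 and 2 and 73 for SMAD2. GDF9-only regions gave 36 and 22 for SMAD4 and 11 and 125 for SMAD2. In Smad2HA/+ cells, retained regions gave 31 and 36 (SMAD2), 28 and 33 (HA) and 18 and 38 (SMAD3). GDF9-only regions gave 40 and 49, 23 and 18, and 16 and 28 there.

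A single vehicle-only region was vehicle-only by 2 further combinations, whereas 35 were by 1 and 2208 by none. The single region was picked for this pattern, and no count of the reverse pattern in 2 combinations is given here. This region lies on chr16:92287009-92288066, 4851 bp upstream of the start of Kcne2, a gene for an accessory subunit of potassium channels. Both vehicle lists and no GDF9 list of native SMAD2 and of SMAD3 in Smad2HA/+ cells met it. The HA lists met it in vehicle replicates 1 and 2 and in GDF9 replicate 2, and SMAD4 met it in vehicle replicate 1 of Smad3PA/PA cells. Its PA heights were 9 and 4 fragments, and the peaks of the 2 PA replicates shared 5.67% of the region. Kcne2 RNA was listed at 0 in both vehicle libraries and at 2.014 and 1.935 normalized counts with GDF9, too few to test. Among the 12 regions met by at least 15 of the 20 lists, which were picked after their values were seen, 1 lay 771 bp upstream of the start of Bcl2l13, a gene of the BCL2 family. It was met by 8 vehicle and 7 GDF9 lists and by all 8 H3K27ac lists. All 8 also met the regions nearest to AI597479 and Gm10382, and 4 met that nearest to Mup5. Only 1 met those nearest to Gm45846 and Gm25177, which were 99.6% and 100% repeat. The regions nearest to Gm27552, Gm24830, Gm43901, Hbb-bt, Gm20948 and Cd200 were met by no H3K27ac list.

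H3K27ac lists met slightly more vehicle-only regions with vehicle than with GDF9. In Smad3PA/PA cells they met 2.45% and 2.67% with vehicle and 1.83% and 1.78% with GDF9. In Smad2HA/+ cells they met 10.78% and 11.23% against 10.43% and 10.74%. Vehicle lists lay above GDF9 lists in both lines, without overlap. The mean difference was 0.59 percentage points, which gives the smallest p that 8 lists in 2 lines can give (exact two-sided permutation test, p = 0.0556), so the design cannot pass 0.05. With vehicle replicate 2 of the PA lists left out, the difference was 0.15 (exact permutation p = 0.222). Retained regions were met at 5.11% and 4.92% with vehicle and 4.05% and 4.14% with GDF9 in Smad3PA/PA cells, the same order, whereas in Smad2HA/+ cells they were met at 12.4% and 12.4% against 13.3% and 13.8%. The Smad2HA/+ lists are broad and covered 17.3% and 17.3% of the genome with vehicle and 16.7% and 17.2% with GDF9. The Smad3PA/PA lists covered 4.37% and 4.78% with vehicle and 3.97% and 3.99% with GDF9. Coverage thus had the same order as the share of vehicle-only regions met, and its part in the difference was not tested. GDF9-only regions were met at 1.11% and 1.09% with vehicle and 0.913% and 0.945% with GDF9 in Smad3PA/PA cells. In Smad2HA/+ cells these values were 4.92% and 5.14% against 4.65% and 4.93%. All 8 lists met 21 vehicle-only regions, and 349 were met by at least 1.

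For genes, a region was assigned to every gene in which it lay within 3 kb of a start, in an exon or in the first intron. The vehicle-only regions fell to 726 gene models, 357 of them coding. Of the 726, 351 had values in the RNA-seq table, and 140 of these (39.9%) passed the filter of a mean of at least 10 normalized counts. Of all genes with values, 48.7% passed it. A gene was called when its log2 fold change exceeded 0.18 in either direction with an adjusted p below 0.05 (limma-trend with Benjamini-Hochberg adjustment over 12597 genes, on the scale of log2(normalized count + 1)). Of the 140, 6 were called (4.29%), against 3.14% of all tested genes. The 4 higher with GDF9 were 2.86% against 2.44%, and the 2 lower were 1.43% against 0.707%. These shares rest on 6 genes and lie near the background. The 140 include a block of Pcdhga and Pcdhgb gene models, none of them called, and genes that share a region were counted singly. The median log2 fold change was 0.003 over the 140 and −0.006 over all tested genes. At an unadjusted p under 0.05 there were 24 (17.1%), against 15.6%.

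**Figure D5:**
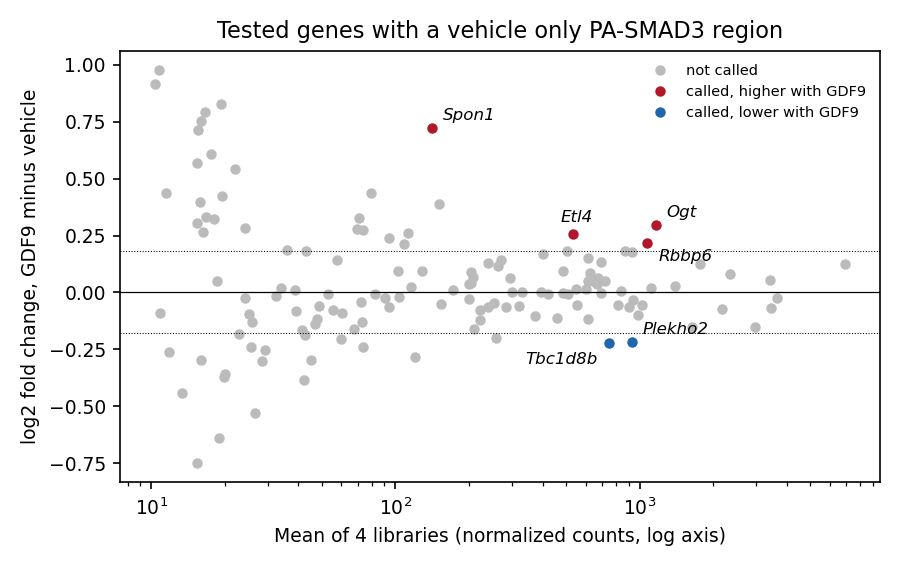
Change of the 140 tested genes with a vehicle-only region, as log2 fold change (GDF9 minus vehicle) against the mean of 4 libraries in normalized counts on a log axis, with called genes in red (higher) and blue (lower) and dotted lines at 0.18 on either side of 0. Of the 140, 4 were called higher and 2 lower, and 134 were not called.

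The gene with the largest called change was Spon1, which encodes a secreted matrix protein, F-spondin. It had 110.3 and 102.8 normalized counts with vehicle and 177.2 and 175.1 with GDF9, a log2 fold change of 0.72 (SE 0.13, adjusted p = 0.000425, limma). Both GDF9 libraries lay above both vehicle libraries. Its region on chr7:113764144-113765265 lay 1293 bp from a start, reached 4 and 5 fragments and was met by 1 of the 20 other SMAD lists. Ogt encodes the enzyme that adds O-linked N-acetylglucosamine to proteins, and its gene lies on chromosome X. It had 1037 and 1062 normalized counts with vehicle and 1306 and 1273 with GDF9 (log2 fold change 0.30, SE 0.05, adjusted p = 0.000409, limma). Its region on chrX:101639060-101639578 lay 741 bp from the start and reached 5 and 5 fragments. It was met by 10 of the 20 other lists, 5 of them of vehicle cells and 5 of GDF9 cells, and by 6 of the 8 H3K27ac lists.

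The other 4 called genes changed less. Rbbp6, which encodes a ubiquitin ligase that binds the RB protein, had 1021 and 950.7 normalized counts with vehicle and 1162 and 1132 with GDF9. Etl4 had 492.7 and 479.3 against 595.2 and 566.0, and held 3 regions, 1 on chr2:19912399-19913212 and 2 near another start farther along the gene. None of the 3 was met by another SMAD list. Plekho2, which encodes a pleckstrin homology domain protein, had 1009 and 994.1 against 892.2 and 831.1, with a region in its first intron 4648 bp from the start. Tbc1d8b, which encodes a protein with the TBC domain of Rab GTPase-activating proteins, had 822.3 and 781.5 against 723.1 and 653.1, with a region in an exon. In each of the 4, both GDF9 libraries lay on one side of both vehicle libraries, and the log2 fold changes were 0.22 (Rbbp6), 0.26 (Etl4), −0.22 (Plekho2) and −0.22 (Tbc1d8b).

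Only Ogt and Spon1 kept their calls under all 10 alternative fits of the RNA-seq. Without vehicle replicate 2 the adjusted p rose to 0.279 for Rbbp6, 0.190 for Etl4, 0.120 for Plekho2 and 0.0961 for Tbc1d8b (limma). Without vehicle replicate 1 it was 0.133 for Etl4, 0.241 for Plekho2 and 0.416 for Tbc1d8b. Without GDF9 replicate 1 it was 0.173 for Etl4 and 0.0546 for Rbbp6, and without GDF9 replicate 2 it was 0.133 for Plekho2 and 0.265 for Tbc1d8b. With DESeq2 on recovered reads all 4 lost their calls.

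Of 258 genes in 17 lists of the SMAD pathway, granulosa cells and other cell types, 4 (1.55%) had a vehicle-only region, near the 1.63% of all 21938 coding gene models. Retained regions fell to 1 of the 258 and GDF9-only regions to 4, against 259 and 658 of the 21938 coding gene models. No vehicle-only region lay at the 20 SMAD and receptor genes, the 20 SMAD feedback and corepressor genes, the 26 TGF-beta family ligands and antagonists or the 20 genes of cumulus expansion and ovulation. None lay at the 10 granulosa markers either. At a share of 1.63%, lists this short are too small for such absences to be read as a result. The 4 genes were Wnt2, a WNT ligand, Zfhx3, a homeobox factor, and the markers of other cells Pecam1 (endothelium) and Adgre1 (macrophages). Pecam1 had 16.08 and 19.49 normalized counts with vehicle and 13.09 and 15.48 with GDF9 (adjusted p = 0.749, limma), and Adgre1 was listed at 0 in both vehicle libraries. Zfhx3 had 272.2 and 241.0 against 314.2 and 254.5 (adjusted p = 0.553, limma), so its groups overlapped. Its region lay in the first intron with 5 and 5 fragments and was met by 1 of 20 lists.

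Of 827 genes with at least 1 vehicle-only region over their whole length, 737 held a single region and 2 held 5. The 2 were Tmem132d, a transmembrane protein gene of 651 kb listed at 0 in all RNA libraries, and C130026I21Rik, a coding gene of 278 kb. C130026I21Rik also held 18 retained regions, and Tmem132d held 1. Of the 5 genes with 4 regions, the gene model Gm20388 spans 4435 kb, the antisense model Gm21847 also held 46 retained regions, and the lincRNA model Gm43122 spans 188 kb. Lengths and neighboring copies of these genes were not allowed for in these counts.

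Among the 10 regions with the highest signal in both vehicle lists, 4 lay on chromosome 14 and 2 on chromosome 5. Their heights ran from 11 to 18 fragments in replicate 1 and from 12 to 25 in replicate 2, and their maxima lay 0 to 27 bp apart. By annotation 5 lay within 3 kb of a start, and these were starts of the coding gene models Gm2916 and AW822073 and of the pseudogenes AC174797.1, Gm3084 and Gm4111. Of the other 5, 4 were nearest to Wasf3, a gene for an actin-regulating protein, Tmem116, the zinc-finger gene Zfp933 and Gm8356. The region nearest to the start of Tmem116 is the region printed above under Naa25, the gene it overlaps. Other SMAD lists met these 10 regions in 0 to 7 of 20 cases. GDF9 peaks lay 159, 186 and 219 bp from the regions near Gm3084, Gm4111 and AW822073. Only uniquely mapped reads had been kept, but the placement of reads among near-identical copies of such genes and pseudogenes is uncertain.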

How the data were processed

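CUT&RUN (40 samples) and RNA-seq (4 samples) of mouse granulosa cells were used. Per the methods and the submitters' processing notes, the authors mapped CUT&RUN reads to mm10 and the E. coli spike-in with Bowtie2, kept uniquely mapped reads, scaled coverage by spike-in fragments and called peaks per library with SEACR. The 32 deposited lists used here hold each peak's total and maximum coverage signal. No IgG list was used here, and whether the IgG control entered peak calling is not given in the sources used here. For RNA-seq the authors used STAR 2.7.11b, featureCounts 2.1.1 and DESeq2 1.48.2 and deposited normalized counts, a signal equal to reads over 1 size factor per library. Whether strand was counted is not known here. Left out were the authors' mean, 3 unnamed columns and 1314 of 27179 entries that had no values.

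Regions were formed on chromosomes 1 to 19, X and Y (Python 3.11.15), leaving out 336 to 356 PA peaks per list elsewhere. Genes came from GENCODE M21 (basic) on GRCm38, matched by Entrez ID for 12193 of 12597 tested genes, and sequence from the RefSeq copy of that build. Distances to starts run from a region's center. Peak lists give no library depth. RNA libraries held 8827825 to 11416005 reads. The RNA-seq test was limma 3.58.1 with a mean-variance trend (R 4.3.3) on log2(value + 1), where the mean was 10 or more. Whole reads, recovered by dividing by each library's smallest value (100% within 0.05 of a whole number), were given to edgeR 4.0.16 and DESeq2 1.42.0 as alternatives. Peak lists were compared by exact permutation of treatment within line and antibody. Tests were tried on simulated data first. Genes and regions were named by rule: called genes with a region, genes of 17 lists with one, the 10 regions of highest signal, the genes with most regions and regions that 2 or more other combinations gave as vehicle-only. Regions, lists and tests were chosen with earlier results of these data known. The sequence and name of 1 region of high signal are not reported here.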

Additional observations from a re-analysis of the deposited data

How the results depend on the processing

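The number of vehicle-only regions moved most with the height and sharing asked of the vehicle peaks and with the vehicle lists used. It was 710 with the 50% of peaks of highest signal, 986 when both vehicle peaks had to share at least 50%, and 53244 to 66315 with a single vehicle list. Leaving out 1 GDF9 list gave 2518 and 2750, and a margin of 1 kb gave 1770. The share within 3 kb of a start was 21.5% with the 50% of peaks of highest signal and 8.24% within 1 kb, and it ran from 10.8% (without vehicle replicate 2) through 16.0% (without vehicle replicate 1) to 18.1% when 1 of the 4 PA lists was left out. The called genes with a region numbered 2 with the 50% of peaks of highest signal, 2 with at least 50% shared, 3 with promoters of 1 kb alone, 10 by nearest start, 2 without a filter on low values and 2 with DESeq2. They ran from 2 to 8 without 1 RNA-seq library and from 6 to 124 without 1 PA list (95 without vehicle replicate 2). In windows of 100 bp to either side of the center the SMAD box was in 39.5% of the regions.

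The 3 comparisons between vehicle and GDF9 lists kept their direction under all alternatives run, and none passed 0.05. The difference over other SMAD lists ran from −1.83 to −0.29 percentage points, its ratio to retained regions from −0.22 to −0.04 on the log2 scale, and the H3K27ac difference from 0.15 to 0.79. Replicate numbers are shared across treatments. With the replicate number as a block, these 3 had p = 0.172, 0.166 and 0.125 by exact permutation, and the RNA-seq fit called 7 of the genes with a region. The numbers were not taken to pair the samples, as same-numbered RNA-seq libraries deviated from their group means with a correlation of 0.005 and there are only 2 of them per group. Across all settings the cause of a change was not tested. With peaks of about 5 fragments, absence of a GDF9 peak is absence of a call, not of binding.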
